A study of Mus musculus with 18 samples.

Results

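The 38 genes described here make or control glycolysis, the breakdown of glucose to pyruvate and lactate, or are known targets of the hypoxia-inducible factors (HIFs). They were listed by symbol, and all 38 were found among the 37224 genes of the count table, with Ensembl identifiers matched to mouse symbols. By role they are 2 glucose transporters, 9 genes for the steps from hexokinase to aldolase and triose isomerase, 6 for the steps from glyceraldehyde dehydrogenase to pyruvate kinase, 4 for the fate of pyruvate and lactate, 2 regulators of phosphofructokinase, 2 oxygen-sensing prolyl hydroxylases and 13 other HIF targets. RNA sequencing was done on 18 libraries of cells differentiated from mouse embryonic stem cells (strain C57BL/6 in every group), in 6 groups of 3 libraries. The first pair of groups were neuromesodermal progenitors (NMPs, bipotent tail-bud cells that form spinal cord and paraxial mesoderm), of wild-type or Hoxb1-null genotype. The other groups were neural progenitors: without added Hoxb1 or SAG, with Hoxb1 after doxycycline (DOX), with SAG, or with DOX-induced Hoxb1 and SAG together. Hoxb1 is a homeodomain transcription factor of the hindbrain and early trunk, and SAG is a Smoothened agonist that activates hedgehog signalling. Because DOX was given with Hoxb1 only, the agent and the gene cannot be told apart, and neither the line or clone nor whether the 3 libraries of a group were separate cultures is stated, so p-values measure only the spread between these libraries.

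Cells take up glucose through facilitative transporters, trap it with hexokinase and split it through phosphofructokinase and aldolase; lactate dehydrogenase and the exporter Slc16a3 then dispose of pyruvate as lactate when it is not sent to mitochondria. HIF is a dimer whose alpha subunit is hydroxylated by the Egln enzymes and destroyed when oxygen is present; without hydroxylation it binds short RCGTG sites, where R is A or G, and raises transcription of many glycolytic genes, of Egln3 itself and of genes for mitophagy and vessel growth. The tail bud of the vertebrate embryo, which holds the NMPs, is known for high glycolytic activity that declines as its descendants differentiate.

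Promoters of 6 genes that moved in different ways are shown first, since the HIF site is a short sequence that can be read in them. They are the 250 bases before a RefSeq start site (build GRCm38.p6), 5′ to 3′ on the gene's strand, with each ACGTG or GCGTG on either strand in capitals (CACGT and CACGC are the reverse strand, and CACGTG holds ACGTG on both). The windows are chr4:119108495-119108744 for Slc2a1, chr11:120948817-120949066 for Slc16a3, chr7:46845554-46845803 for Ldha, chr7:138909507-138909756 for Bnip3, chr13:6648772-6649021 for Pfkp and chr17:46032378-46032627 for Vegfa. The first 3 are on the plus strand and the last 3 on the minus strand. In the count table's annotation (mm10) these genes are Slc2a1 (ENSMUSG00000028645, chr4:119108711-119137330), Slc16a3 (ENSMUSG00000025161, chr11:120948480-120960868), Ldha (ENSMUSG00000063229, chr7:46841475-46855627), Bnip3 (ENSMUSG00000078566, chr7:138890836-138909519), Pfkp (ENSMUSG00000021196, chr13:6579768-6648777) and Vegfa (ENSMUSG00000023951, chr17:46016993-46032377), all protein-coding.
Slc2a1: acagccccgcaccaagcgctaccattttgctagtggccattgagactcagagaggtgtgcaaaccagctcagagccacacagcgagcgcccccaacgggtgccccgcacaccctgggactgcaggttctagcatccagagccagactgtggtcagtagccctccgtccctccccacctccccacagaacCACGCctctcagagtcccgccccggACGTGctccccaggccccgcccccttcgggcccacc
Slc16a3: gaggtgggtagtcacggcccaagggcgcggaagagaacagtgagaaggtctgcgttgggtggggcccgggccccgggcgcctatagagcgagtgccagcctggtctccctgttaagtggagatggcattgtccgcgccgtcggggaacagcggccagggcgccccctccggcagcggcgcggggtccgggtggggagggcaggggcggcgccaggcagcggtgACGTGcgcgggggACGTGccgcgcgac
Ldha: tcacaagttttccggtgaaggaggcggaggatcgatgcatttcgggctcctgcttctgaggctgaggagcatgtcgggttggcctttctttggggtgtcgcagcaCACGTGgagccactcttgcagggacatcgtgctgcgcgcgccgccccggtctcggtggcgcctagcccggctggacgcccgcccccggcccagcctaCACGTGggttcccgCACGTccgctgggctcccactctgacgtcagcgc
Bnip3: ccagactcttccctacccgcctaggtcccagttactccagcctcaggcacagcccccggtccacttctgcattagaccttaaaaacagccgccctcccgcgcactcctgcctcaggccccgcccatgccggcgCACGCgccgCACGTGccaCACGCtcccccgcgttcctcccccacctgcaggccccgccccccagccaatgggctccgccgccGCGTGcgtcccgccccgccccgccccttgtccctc
Pfkp: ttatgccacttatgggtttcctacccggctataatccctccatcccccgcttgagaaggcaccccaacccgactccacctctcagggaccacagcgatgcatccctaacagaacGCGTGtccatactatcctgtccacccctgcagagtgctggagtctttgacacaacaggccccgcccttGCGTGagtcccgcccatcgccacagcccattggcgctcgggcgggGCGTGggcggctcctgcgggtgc
Vegfa: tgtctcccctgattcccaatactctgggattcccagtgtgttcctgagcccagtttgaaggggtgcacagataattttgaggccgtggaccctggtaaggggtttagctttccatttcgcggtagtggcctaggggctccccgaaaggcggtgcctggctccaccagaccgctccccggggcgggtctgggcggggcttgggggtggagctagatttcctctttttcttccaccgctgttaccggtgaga

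Slc16a3 held ACGTG at 27 and at 14 bases before its start, and Ldha held 5 matches to ACGTG over both strands, 4 of them as overlapping pairs in CACGTG. Slc2a1 held 1 match to each motif, Bnip3 held 2 to ACGTG and 3 to GCGTG, and Pfkp held 3 to GCGTG. The Vegfa window shown had neither motif. A second RefSeq window of Vegfa, at chr17:46025164-46025413 and thus inside the gene, had 1 of each. In the counts that follow, a gene held a motif if any of its RefSeq windows did, so Vegfa is counted for both. Of the 35 members with a RefSeq promoter, 20 (57.1%) held ACGTG, against 18.5% of 27025 genes, and 24 (68.6%) held GCGTG, against 30.9%. Either motif was in 32 members (91.4%) and in 41.5% of all genes with such windows. Members were partly listed as known HIF targets, and a match describes the letters only. The number of windows per gene and their base content were not matched between members and all genes.

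The libraries held 13301476 to 26974315 counts. The 38 genes took 1.27% to 1.36% of all counts in wild-type NMPs, 0.993% to 1.12% in null NMPs, 0.582% to 0.609% in progenitors given neither Hoxb1 nor SAG, 0.536% to 0.565% where Hoxb1 was induced, 0.728% to 0.765% under SAG alone and 0.580% to 0.595% where both were given. Library numbers ran from 2533 to 2538 for the SAG groups, 7390 to 7395 for the progenitors without SAG and 8085 to 8090 for the NMPs, so SAG and NMP identity cannot be told apart from the library set. The SAG libraries were also the deepest (22610407 to 26974315 counts, against 13301476 to 14505711 in progenitors without SAG). Hoxb1 read 241, 272 and 250.1 CPM (read counts scaled to library size) in wild-type NMPs and 14.8, 16.2 and 14.8 in null NMPs. In progenitors it read 0.357, 0.647 and 0.0701 without Hoxb1 or SAG, 336, 329 and 305 with Hoxb1, 0.502, 0.383 and 0.493 with SAG and 614, 572 and 589 with both. The third null NMP library stood apart from its replicates (chi-square per gene 5.07 and 3.93, against 2.33 between the other 2), and counts of calls are given with and without it. Markers of the labelled cells were present: the 9 NMP markers summed to 1807 to 2012 CPM in wild-type NMPs and 8 neural progenitor markers to 2822 to 2987 CPM in progenitors without Hoxb1 or SAG.

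CPM values here use scaling factors over all 18 libraries, so that all groups share a scale; values are mean ± SD over 3 libraries. The order of members given here is that of the values as counted. Gapdh averaged only 17.2 CPM over the 18 libraries, and near-identical copies elsewhere cover 88.0% of its transcript, as given below. Per kilobase of exon, Pkm, the pyruvate kinase of most growing cells, was the most abundant member in every group, from 1682 ± 64 CPM per kb in wild-type NMPs to 376 ± 10.2 in progenitors with Hoxb1. Aldoa, the main aldolase, came next in wild-type NMPs (777 ± 45.3), ahead of Ldha, which turns pyruvate into lactate (572 ± 30.2), and Ddit4, an inhibitor of mTORC1 (462 ± 12.9). In progenitors without Hoxb1 or SAG the order after Pkm was Ddit4 (231 ± 6.04), Aldoa (202 ± 7.05) and the triose isomerase Tpi1 (156 ± 9.25), with Vegfa at 108 ± 7.65 and Ldha at 81 ± 4.38. Ldha thus dropped out of the top of the order, and Vegfa, the vessel growth factor, moved up it. Car9, a carbonic anhydrase often used as a hypoxia marker, was at most 0.668 CPM in any library and passed no test. Adm, a vasodilator peptide, was at most 0.617 CPM in NMPs and was not tested there, as was Car9. Ankrd37, an ankyrin-repeat HIF target, lay between 0.925 and 3.07 CPM.

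**Figure D1:**
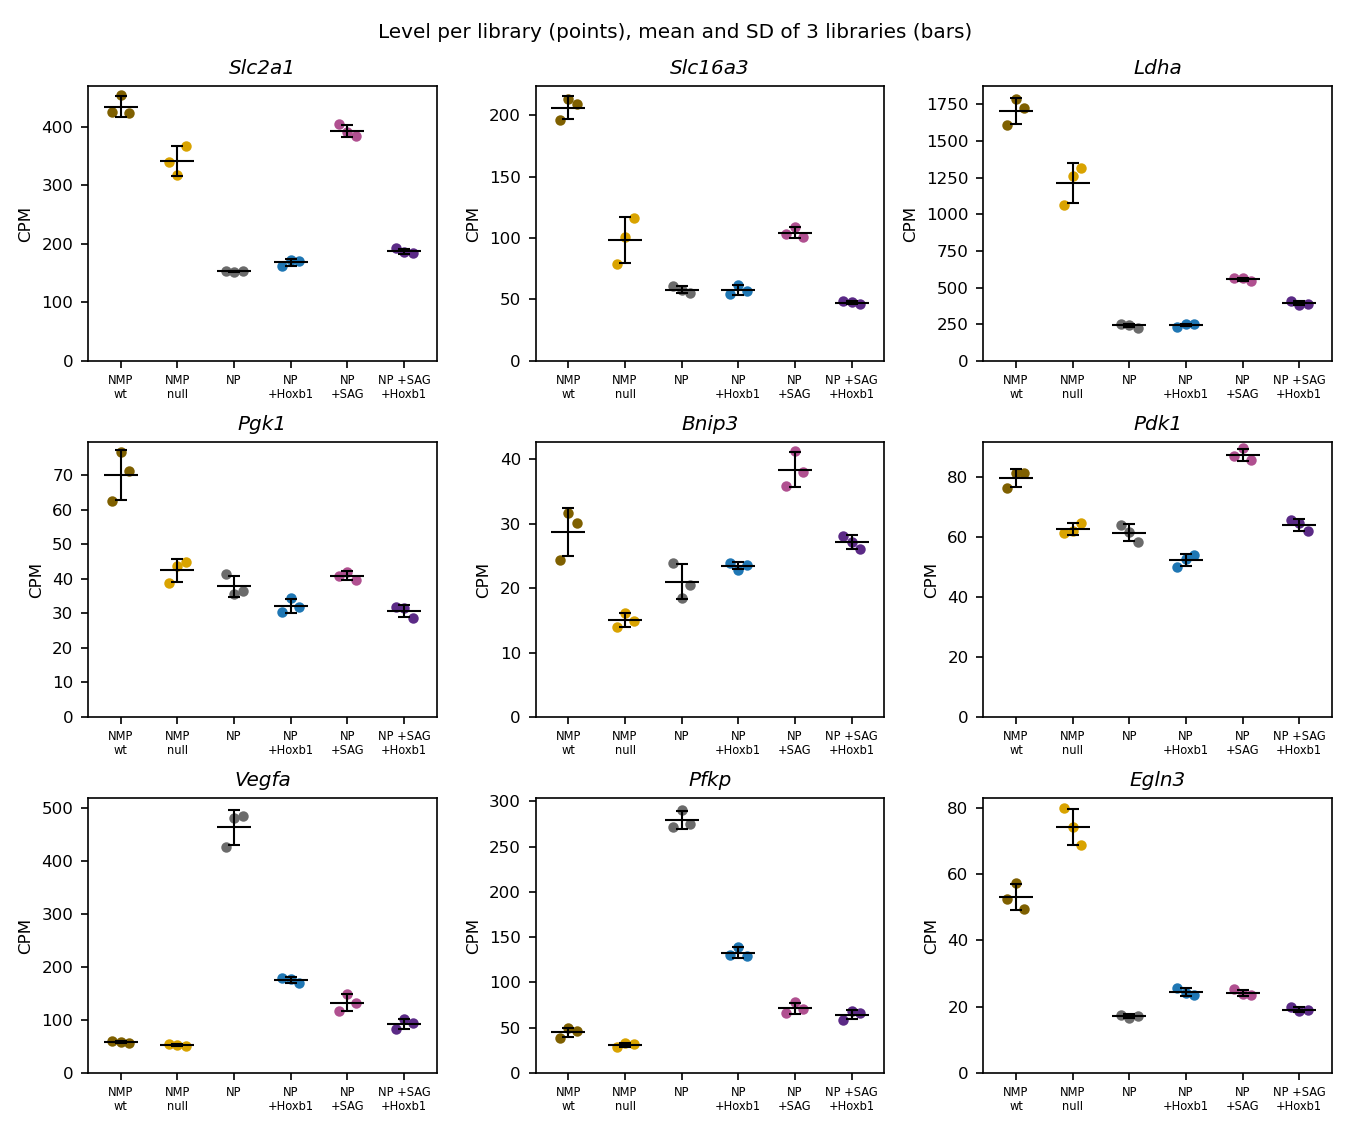
Level of 9 genes in CPM (vertical axes, linear, starting at 0) in each of the 6 groups, with points for the 3 libraries and bars for the mean and SD; wt and null are the NMP genotypes and NP the neural progenitors. Slc2a1, Slc16a3 and Bnip3 were higher with SAG alone than in the other progenitor groups, while Vegfa and Pfkp were highest in progenitors without Hoxb1 or SAG.

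NMPs and neural progenitors differed in both directions across these genes. Every NMP library lay above every progenitor library in 11 of the 36 members tested in both fits, a pattern that 30.8% of 14531 genes showed. The reverse held for 9 of 36, against 27.4% of genes, so neither share stands out. The largest such gap was in Eno1, the enolase of most tissues, at 873 ± 18 CPM in wild-type NMPs and 59.4 ± 4.11 in progenitors without Hoxb1 or SAG, and Ldha read 1707 ± 90.0 and 242 ± 13.1. Hk2, the inducible hexokinase, read 278 ± 6.44 and 115 ± 5.64, and Ndrg1, a stress-induced gene, 37 ± 0.904 and 7.96 ± 0.103. In the other direction Pfkp, the platelet-type phosphofructokinase, read 44.7 ± 5.25 and 279 ± 10.1 CPM, Vegfa 58.6 ± 1.2 and 464 ± 32.9, and Mxi1, a MYC antagonist, 17.2 ± 0.573 and 66.9 ± 3.11. In all 7 genes the libraries of these cell types did not overlap. They were named after their values were seen, and differences between NMPs and progenitors were not tested.

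The isoform in use differed with cell type at several steps. Shares are of CPM per kb, so that gene length does not enter, and are described without a test. Near-identical copies of Eno1 and Ldhb elsewhere in the genome make the Eno2 and Ldhb shares uncertain, as given below. Hk2 made up 94.3% ± 0.455 (SD) of the sum of Hk1 and Hk2 in wild-type NMPs and 64% ± 1.74 in progenitors without Hoxb1 or SAG. Among the phosphofructokinases, Pfkl (liver type) made up 79.9% ± 0.753 in wild-type NMPs and 32.6% ± 0.576 in those progenitors, where Pfkm (muscle type) held 45.5% ± 0.183 and Pfkp 21.8% ± 0.751. With SAG the Pfkl share was 53.2% ± 1.21 and the Pfkp share 6.09% ± 0.416. Aldoc, the aldolase of brain and of radial glia, made up 0.656% ± 0.114 of aldolase in wild-type NMPs. It made up 10.3% ± 0.496 in progenitors without Hoxb1 or SAG, 16.7% ± 0.303 with Hoxb1, 4.84% ± 0.242 with SAG and 9.92% ± 0.135 with both. The neuronal enolase Eno2 held 3.93% ± 0.403 of enolase in wild-type NMPs, 61.4% ± 1.46 in progenitors without Hoxb1 or SAG and 22% ± 2.26 with SAG. Ldhb, the lactate dehydrogenase subunit of oxidative tissues, held 18.7% ± 0.748 in wild-type NMPs, 53.6% ± 1.33 without Hoxb1 or SAG, 38.7% ± 0.164 with SAG and 46.3% ± 0.379 with both. The libraries of these groups did not overlap within a share, except that the Aldoc share met between progenitors without Hoxb1 or SAG and those with both.

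**Figure D2:**
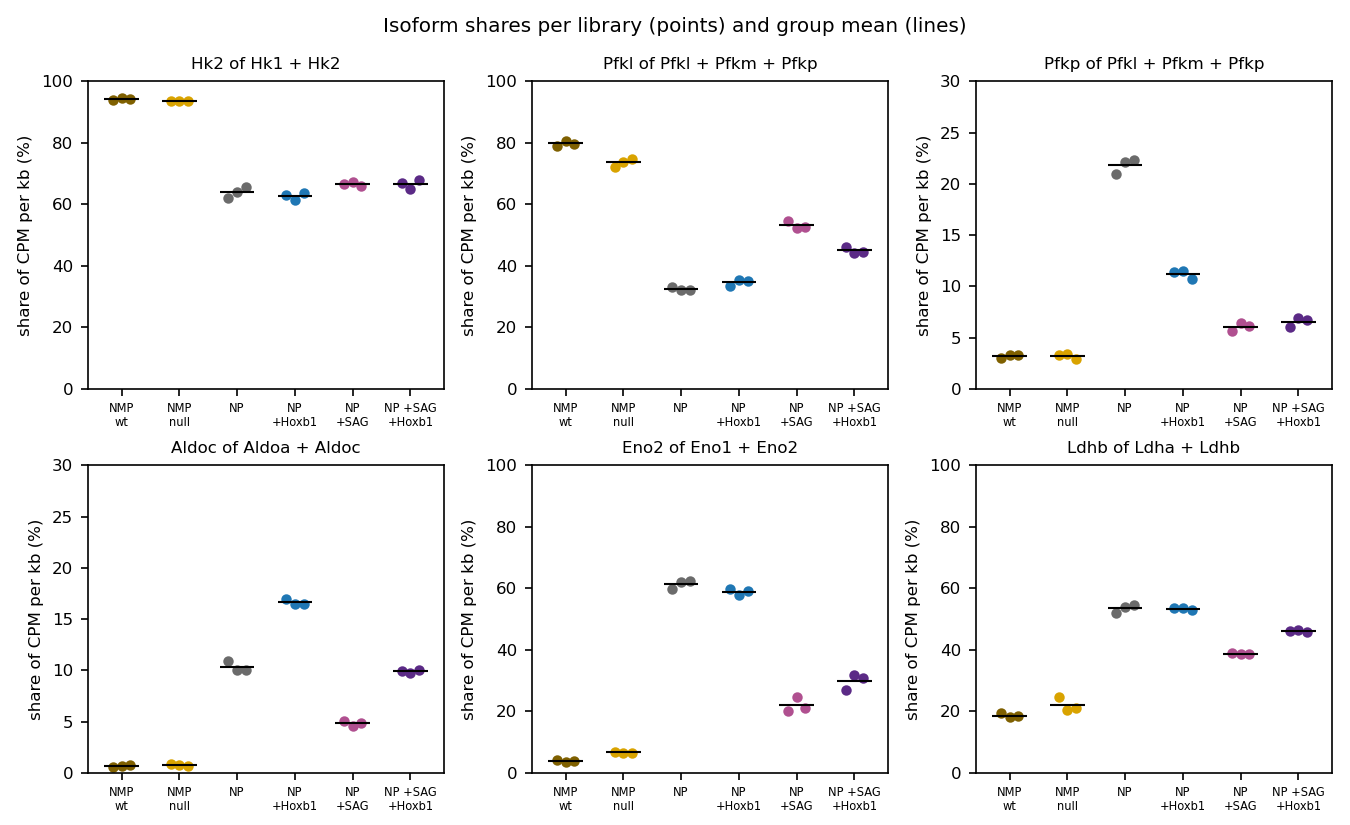
Share of 1 isoform in the summed CPM per kb of its enzyme family (vertical axes in percent, the Pfkp and Aldoc panels up to 30%) in the 6 groups, with points for libraries and lines for means. Hk2 and Pfkl shares were highest in NMPs, while Eno2 and Ldhb shares were highest in progenitors without SAG. The Eno2 and Ldhb shares are uncertain because Eno1 and Ldhb have near-identical copies elsewhere.

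Loss of Hoxb1 in NMPs was accompanied by lower levels of most of the pathway. Of the 36 members tested, 23 fell and 3 rose (edgeR quasi-likelihood test, Benjamini-Hochberg adjusted p under 0.05), where 13.9% of 15032 genes fell and 14.9% rose (28.8% in either direction). By role, both transporters fell, as did 5 of 9 genes from hexokinase to triose isomerase, 4 of 6 from glyceraldehyde dehydrogenase to pyruvate kinase, all 4 of pyruvate and lactate fate and 6 of 11 tested HIF targets. The median log2 change of the members was -0.26, against -0.00013 for all tested genes. Most changes were small: 6 members fell and 1 rose by at least 1.5-fold, where 1.96% and 5.62% of genes did. Without the third null library, 24 fell and 3 rose, among 2583 falls and 2514 rises of all genes.

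Slc16a3, which exports lactate, fell most. It read 196, 213 and 209 CPM in wild-type and 78.8, 101 and 116 CPM in null NMPs (log2 change -1.07 ± 0.14 (SE), adjusted p = 0.00387), and the third null library was the highest of its group. In the same order, Bnip3, a mitophagy receptor, read 24.4, 31.6 and 30.1 against 14, 16.2 and 14.9 CPM (log2 change -0.94 ± 0.09 (SE), adjusted p = 7.29e-08). Pgk1, the phosphoglycerate kinase that yields ATP, read 62.4, 76.5 and 71.1 against 38.7, 43.8 and 44.8 (log2 change -0.73 ± 0.069 (SE), adjusted p = 1.01e-07). In these 3 genes every null library lay below every wild-type library. The same order held for Ldha (1609, 1787 and 1723 against 1060.5, 1262 and 1316 CPM, log2 change -0.50 ± 0.083 (SE), adjusted p = 0.0046) and for Slc2a1, the basal glucose transporter (425, 454 and 423 against 339, 317 and 367, log2 change -0.35 ± 0.044 (SE), adjusted p = 2.74e-06). Pdk1, a kinase that inhibits pyruvate dehydrogenase, read 76.3, 81.5 and 81.4 against 61.4, 62 and 64.9 CPM (log2 change -0.35 ± 0.049 (SE), adjusted p = 1.17e-05). The smallest of these falls was in Vegfa, with 59.4, 59.2 and 57.3 against 54.4, 52 and 51.4 CPM (log2 change -0.16 ± 0.052 (SE), adjusted p = 0.0228), and it was lost with DESeq2, with all 18 libraries in 1 fit and without the first or second wild-type or the second null library (adjusted p up to 0.309).

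The 3 members that rose in null NMPs were Ndrg1, Egln3 and Eno2. Ndrg1 read 38, 36.4 and 36.4 CPM in wild-type and 77.4, 65.8 and 67.2 in null NMPs (log2 change 0.92 ± 0.062 (SE), adjusted p = 1.91e-10). Egln3, a HIF-induced prolyl hydroxylase, read 52.4, 57.2 and 49.5 against 79.8, 74.2 and 68.8 (log2 change 0.48 ± 0.06 (SE), adjusted p = 2.47e-06), and Eno2 33.9, 28.5 and 31.2 against 43.4, 43.7 and 48.6 (log2 change 0.54 ± 0.068 (SE), adjusted p = 2.94e-06). In each the groups did not overlap. Egln1, the other prolyl hydroxylase among the members, moved the other way (55.2 ± 3.6 to 37.7 ± 2.32 CPM, log2 change -0.56). Hk2 read 278 ± 6.44 and 275 ± 10.6 CPM and Ddit4 778 ± 21.8 and 738 ± 50.7, differences that did not pass the test (log2 change -0.016 ± 0.038 and -0.079 ± 0.041, SE). Levels of other cells' genes moved in the same comparison: 6 of 8 pluripotency markers rose (summed 419 to 445 CPM in wild-type and 563 to 614 in null NMPs, none at 0), and 8 of 9 NMP markers fell while 1 rose (1807 to 2012 and 1570.4 to 1661 CPM, none at 0). Of 4 tested endothelium and blood markers 3 rose (median 1.03, the 7 listed summing to 20.2 to 23.6 and 31.5 to 41.5 CPM, with Hbb-bt at 0 in wild-type and Hba-a1 in null NMPs). Of 5 tested mesenchyme markers 3 rose and 1 fell (median 0.54, summed 141 to 149.8 and 138 to 152 CPM, none at 0), and of 5 tested endoderm markers 2 rose (189 to 197 and 208 to 246 CPM, none at 0). Of 15 targets of the stress factor ATF4, 13 rose and 1 fell (median 0.49). Their part in the falls was not tested, and in bulk RNA fewer cells of a type and less RNA per cell cannot be told apart.

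In progenitors without SAG, Hoxb1 went with changes in both directions. Of the 38 members, 13 (34.2%) rose and 10 (26.3%) fell (60.5% in either direction), where 24.1% of 16238 genes rose and 22.1% fell (46.2% in either direction). The share of falls was thus close to that of all genes. The members' median log2 change was 0.029, against 0.0031 for all tested genes. Only 1 rise and 2 falls reached 1.5-fold, where 5.65% of genes rose and 6.66% fell that far, so such changes were no more frequent in members. Vegfa fell most, from 427, 482 and 485 CPM without Hoxb1 to 179, 178 and 169 with it (log2 change -1.40 ± 0.1 (SE), adjusted p = 3.91e-06). Pfkp fell from 272, 291 and 275 to 130.1, 139.6 and 129 (log2 change -1.06 ± 0.063 (SE), adjusted p = 9.61e-09). Pfkfb3, the bifunctional enzyme that raises phosphofructokinase activity, fell from 90.2, 109 and 105 to 69.6, 73.4 and 73 (log2 change -0.49 ± 0.089 (SE), adjusted p = 0.000875). The libraries with and without Hoxb1 did not overlap in any of the 3. Smaller falls were measured in Pdk1 (64.2, 61.8 and 58.5 to 50.1, 52.6 and 54.1 CPM, log2 change -0.22 ± 0.048 (SE), adjusted p = 0.000159), in Pgk1 (41.3, 35.7 and 36.3 to 30.4, 34.3 and 32, log2 change -0.22 ± 0.064 (SE), adjusted p = 0.00396) and in Ddit4 (379, 391 and 399 to 352, 353 and 333, log2 change -0.16 ± 0.032 (SE), adjusted p = 4.74e-05). These groups too did not overlap, and the call for Pgk1 was lost without the first library lacking Hoxb1 (adjusted p = 0.0534).

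The rises in the absence of SAG were led by Aldoc, from 82.5, 74.7 and 70.2 to 125, 134 and 134 CPM (log2 change 0.80 ± 0.046 (SE), adjusted p = 1.03e-17). Egln3 rose from 17.6, 16.7 and 17.3 to 25.6, 24 and 23.4 (log2 change 0.51 ± 0.072 (SE), adjusted p = 1.10e-07) and Kdm3a, a HIF-induced histone demethylase, from 93, 88.2 and 91.3 to 113, 113 and 115 (log2 change 0.33 ± 0.038 (SE), adjusted p = 1.08e-09). Slc2a1 rose only from 153, 152 and 154 to 162, 172 and 171 (log2 change 0.14 ± 0.035 (SE), adjusted p = 0.000596). In each, all libraries with Hoxb1 lay above all without. The lactate branch showed little: Ldha read 253, 245 and 227 against 234, 249 and 249.9 CPM (log2 change 0.026 ± 0.036, SE) and Slc16a3 61.3, 57.5 and 55.5 against 54.2, 61.6 and 57.1 (-0.0023 ± 0.051), with overlapping libraries in both genes. The genes of the ATF4 stress response moved strongly in the same comparison: all 15 listed fell (median -1.60, summed 4007 to 4419 CPM without and 1490.1 to 1534 with Hoxb1), led by Atf5 (767 ± 80.0 to 59.3 ± 2 CPM) and Trib3 (101 ± 11.9 to 8.98 ± 0.299). All 8 neuron markers rose (summed 1599.9 to 1673 and 2392 to 2537 CPM, none at 0), all 8 pluripotency markers fell (288 to 327 and 147 to 172, none at 0), and 4 of 6 mesenchyme markers rose (406 to 433 and 921 to 949, none at 0). What these changes contribute to the falls of Vegfa and Pfkp and the rise of Aldoc was not tested.

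With SAG present, Hoxb1 went with lower levels across the pathway. Of 38 members, 26 fell and 4 rose, where 21.9% of 16238 genes fell and 21.4% rose. Both transporters fell, as did 6 of 9 genes from hexokinase to triose isomerase, 4 of 6 from glyceraldehyde dehydrogenase to pyruvate kinase, 3 of 4 of pyruvate and lactate fate and 9 of 13 HIF targets. The median log2 change was -0.22, against 0.0012 for all tested genes. At 1.5-fold or more there were 4 falls and 1 rise, where 5.99% of genes fell and 4.76% rose, so most of these falls were smaller than that.

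Slc16a3 fell from 103, 109 and 101 CPM with SAG alone to 48.8, 47.6 and 46 with SAG and Hoxb1 (log2 change -1.13 ± 0.043 (SE), adjusted p = 9.00e-25). Slc2a1 fell from 404, 391 and 383 to 192, 185 and 184 (log2 change -1.06 ± 0.03 (SE), adjusted p = 4.50e-29). The falls of Slc16a3 and Slc2a1 were the largest among the members. The other glucose transporter, Slc2a3, fell less (log2 change -0.45). Of the summed CPM per kb of Slc16a3 and Slc16a1, another lactate transporter, Slc16a3 made up 42.5% ± 1.72 (SD) with SAG. Its share was 29.2% ± 0.715 with SAG and Hoxb1, so these falls do not describe the steps as a whole. The 1363 tested genes of chromosome 11, which carries Slc16a3, had a median log2 change of -0.13, against 0.010 on the other chromosomes. The part of that shift in the fall of Slc16a3 was not tested. Ankrd37 read 3.05, 2.85 and 2.67 against 1.53, 1.93 and 1.95 CPM (log2 change -0.65 ± 0.17 (SE), adjusted p = 0.00163), at low counts. Ldha fell from 562, 565 and 542 to 409, 384 and 388 CPM (log2 change -0.49 ± 0.033 (SE), adjusted p = 2.83e-16), Bnip3 from 35.9, 41.3 and 38 to 28.1, 27.2 and 26 (log2 change -0.50 ± 0.058 (SE), adjusted p = 2.55e-09) and Pdk1 from 87.1, 89.8 and 85.9 to 65.8, 64.7 and 62 (log2 change -0.44 ± 0.039 (SE), adjusted p = 9.32e-13). The groups did not overlap in any of these genes.

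In the same comparison Ddit4 fell from 281, 294 and 275 to 205, 204 and 205 CPM (log2 change -0.46 ± 0.031 (SE), adjusted p = 4.21e-16) and Pgk1 from 40.9, 42.1 and 39.5 to 31.7, 31.5 and 28.7 (log2 change -0.41 ± 0.053 (SE), adjusted p = 2.39e-08). Vegfa fell from 116, 149 and 133 to 82.6, 101 and 93.9 (log2 change -0.52 ± 0.11 (SE), adjusted p = 0.00426), Egln3 from 25.2, 23.7 and 23.4 to 19.8, 18.6 and 18.9 (log2 change -0.33 ± 0.058 (SE), adjusted p = 8.99e-06) and Hk2 from 124, 129 and 123 to 113, 101 and 108 (log2 change -0.22 ± 0.037 (SE), adjusted p = 4.35e-06). In the other direction, Aldoc rose from 49.7, 47 and 45.3 to 78.5, 74.6 and 75.7 CPM (log2 change 0.69 ± 0.045 (SE), adjusted p = 4.96e-16), with no overlap. Eno2 read 31.6, 41 and 33.6 against 39.5, 46.6 and 45.2 CPM (log2 change 0.31 ± 0.088 (SE), adjusted p = 0.0142). Pfkfb4, the other bifunctional regulator, read 11.1, 13 and 13.2 against 12.3, 15.9 and 14.8 (log2 change 0.22 ± 0.081 (SE), adjusted p = 0.0286). In Eno2 and Pfkfb4 the libraries of the groups overlapped, and both calls were lost when only these 6 libraries were fitted (adjusted p = 0.101 and 0.0608). Pfkfb4 was also lost with DESeq2, with upper-quartile factors and without the first library with SAG alone or the second or the third with both (adjusted p up to 0.250). Neural progenitor markers fell in 6 of 8 (summed 2069 to 2151 CPM with SAG and 1638 to 1688 with both, none at 0), and 5 of 8 neuron markers rose and 2 fell (958 to 988 and 1420.2 to 1482, none at 0). Of the ATF4 genes 11 of 15 fell (median -0.52). Their part in the falls was not tested.

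The null NMP and the Hoxb1 with SAG comparisons share no library, and Hoxb1 was lowered in the first and raised in the second. In them, 18 members fell in both, which is 18 of the 23 that fell in null NMPs and 18 of the 26 that fell with Hoxb1 and SAG. Of 14531 genes, 3.3% fell in both. In the separate comparisons 63.9% and 68.4% of members fell, against 13.9% and 21.9% of genes. A large overlap follows from such shares alone, and whether it exceeds them was not tested. The 18 members are Slc2a1, Slc2a3, Gpi1, Pfkl, Aldoa, Tpi1, Pgk1, Pgam1, Eno1, Pkm, Ldha, Pdk1, Slc16a3, Pfkfb3, Bnip3, Bnip3l, Vegfa and P4ha1, which include most steps from uptake to lactate export. The calls for Pgam1, and that for Vegfa in null NMPs given above, were lost under some settings. In null NMPs the Pgam1 libraries overlapped with the wild type, and the call was lost with DESeq2 and without the second or the third wild-type or the first or the third null library (adjusted p up to 0.132). With Hoxb1 and SAG the Pgam1 call was lost under 6 settings, among them DESeq2 and the fits without the first or second SAG library or the second with both (adjusted p up to 0.168). With Hoxb1 without SAG, 34.2% of members rose, against 24.1% of genes, and the next count was likewise not tested against the separate shares. In all, 9 members fell in null NMPs and rose with Hoxb1 without SAG (4.73% of 14531 genes). Slc2a1, Gpi1, Tpi1, Pgam1, Eno1 and Bnip3l of these are among the 18, while Egln1, Kdm3a and Mxi1 are not.

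**Figure D3:**
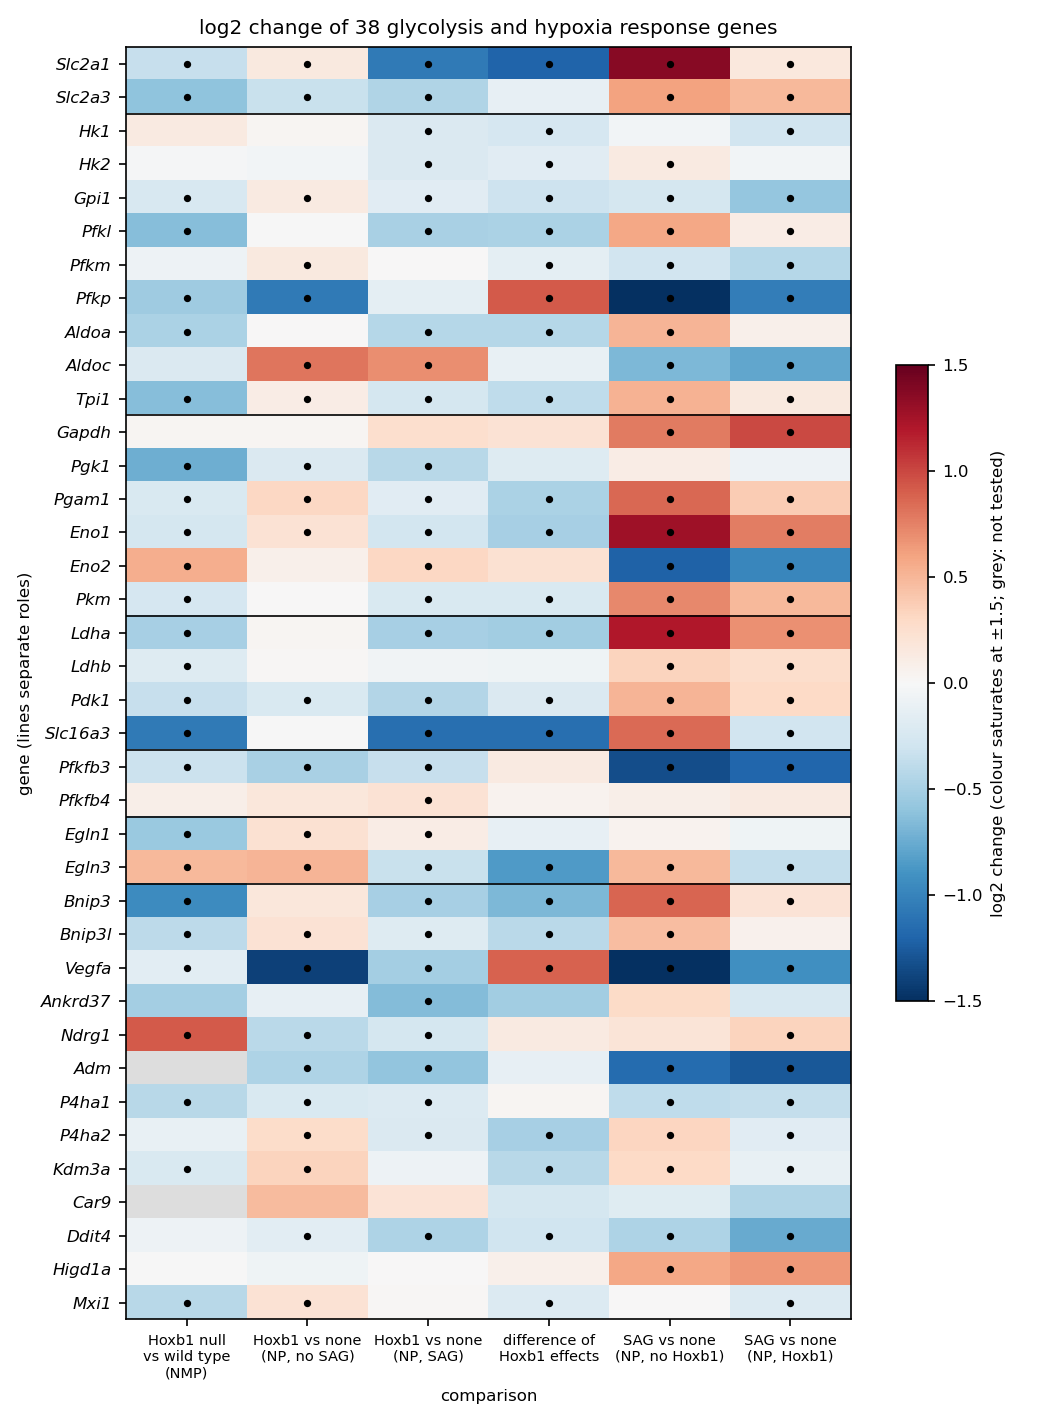
Log2 change of each of the 38 genes (rows, ordered by role) in the 6 comparisons (columns), red higher and blue lower, with a dot where the edgeR test passed at an adjusted p under 0.05 and grey where a gene was not tested. Blue with dots runs down most of the null NMP column and of the Hoxb1 column with SAG, while the Hoxb1 column without SAG holds both colours.

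The effect of Hoxb1 itself was compared between progenitors with and without SAG, as an interaction in the fit of 12 libraries. It was lower with SAG in 21 members and higher in 2, where 18.6% of 16238 genes were lower and 16.8% higher. The count of higher effects became 4 without the second library with SAG alone and without the first with SAG and Hoxb1. Slc2a1 stood at the extreme (difference -1.21 ± 0.046 SE, adjusted p = 4.44e-24), with a small rise without SAG and a fall with it. Slc16a3 followed (difference -1.13 ± 0.067, adjusted p = 1.25e-17), then Egln3 (difference -0.84 ± 0.092, adjusted p = 6.78e-10) and Bnip3 (difference -0.67 ± 0.099, adjusted p = 5.54e-07). Bnip3 read 23.9, 18.5 and 20.5 CPM without Hoxb1 or SAG and 23.9, 22.8 and 23.7 with Hoxb1, which overlapped. The difference was also called for Ldha (-0.52), Ddit4 (-0.30), Pdk1 (-0.22) and Hk2 (-0.17). The call for Hk2 was lost without the second library with both or the first with neither (adjusted p up to 0.0704).

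The 2 members with a higher effect under SAG were Pfkp (difference 0.92 ± 0.092, adjusted p = 4.27e-06) and Vegfa (difference 0.88 ± 0.15, adjusted p = 0.00162). Without SAG, both fell with Hoxb1 (log2 change -1.06 and -1.40); with SAG, Vegfa fell by less (-0.52) and Pfkp read 66.2, 78.1 and 70.2 against 58.9, 68.5 and 66 CPM, which overlapped. For Aldoc the difference of -0.11 ± 0.065 did not pass the test (adjusted p = 0.208). Chromosome 11, which carries Aldoc, Slc16a3 and P4ha2, had a median difference of -0.10, against 0.0076 on the other chromosomes. The part of that shift in the differences of these genes was not tested. Across both states, 8 members rose with Hoxb1 without SAG and fell with it: Slc2a1, Gpi1, Tpi1, Pgam1, Eno1, Egln3, Bnip3l and P4ha2 (3.34% of 16238 genes). This count and the joint counts below were not tested against the separate shares of rises and falls. The rise of Tpi1 without SAG (0.11, overlapping libraries) was lost with all 18 libraries in 1 fit (adjusted p = 0.103) and without the second or the third library lacking Hoxb1 or the second with it, and the fall of Pgam1 was lost as given above. At 1.5-fold or more, 2 differences were higher (5.19% of genes) and 4 lower (5.61%). A further 9 were not called without SAG and fell with it, Hk1, Hk2, Pfkl, Aldoa, Pkm, Ldha, Slc16a3, Bnip3 and Ankrd37 (9.38% of genes). Another 9 fell in both, Slc2a3, Pgk1, Pdk1, Pfkfb3, Vegfa, Ndrg1, Adm, P4ha1 and Ddit4 (9.21% of genes). The fall of Ndrg1 was lost without the first Hoxb1 library where SAG was absent (adjusted p = 0.155). Under SAG it was lost with DESeq2 and without the second or the third library of either group (adjusted p up to 0.247). Aldoc and Egln1 rose in both (10.4% of genes), though the rise of Egln1 under SAG was lost without the third library with SAG alone or the first with both (adjusted p = 0.0663 and 0.0659). The ATF4 genes differed in the other direction from most members: 14 of 15 had a higher effect with SAG (median difference 0.94). Since the SAG libraries are a separate library set, the interaction cannot be told apart from a set by Hoxb1 interaction.

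**Figure D4:**
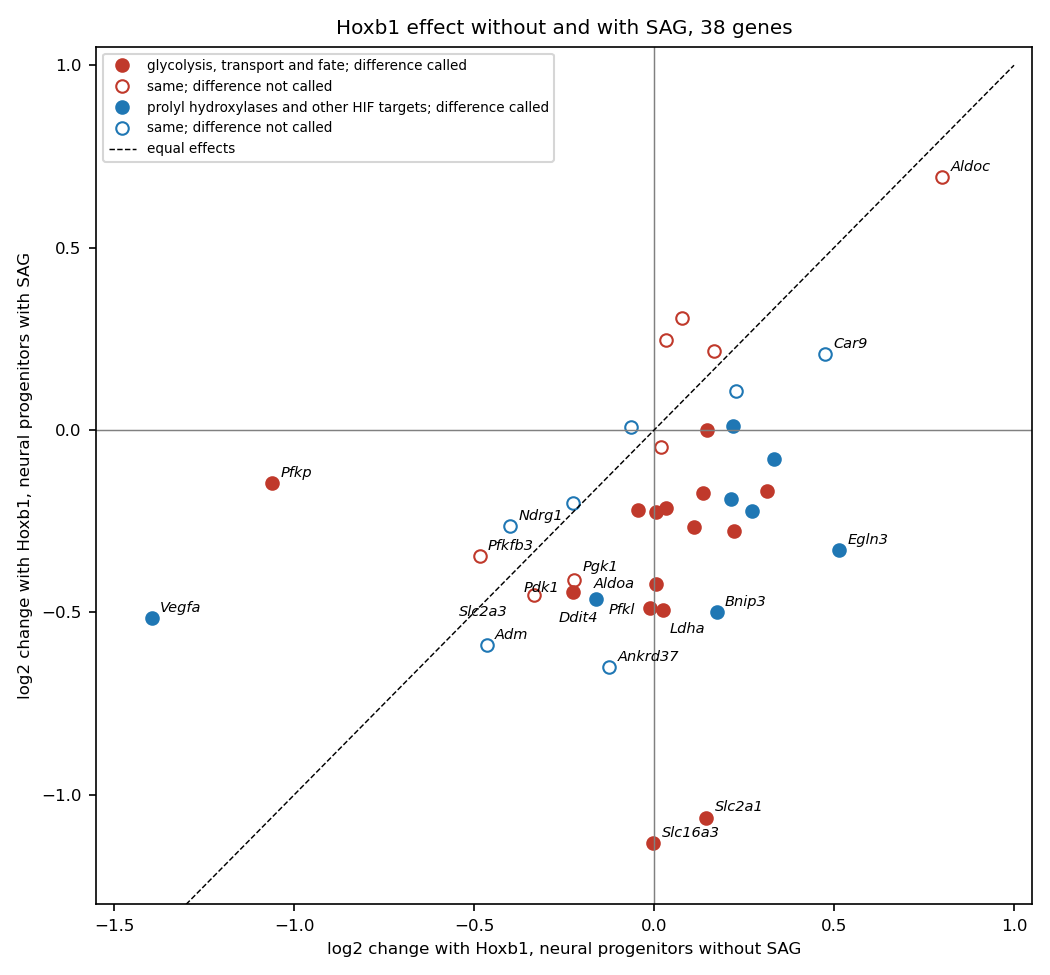
Log2 change with Hoxb1 without SAG (horizontal axis) against that with SAG (vertical axis) for the 38 genes, filled where the difference of the effects passed the edgeR test and open where it did not; the dashed line marks equal effects. Slc2a1 and Slc16a3 lie lowest on the vertical axis, while Vegfa and Pfkp lie to the left, above the line.

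SAG alone went with higher levels of genes for glucose uptake, the later glycolytic steps and lactate, and with lower levels of Pfkp, Vegfa and Pfkfb3. Of 38 members, 20 rose and 10 fell, where 36.5% of 16238 genes rose and 36.3% fell. This comparison uses the same libraries without Hoxb1 that serve above, and its values are given side by side with those. All 4 genes of pyruvate and lactate fate and both transporters rose, and 4 of 6 genes from glyceraldehyde dehydrogenase to pyruvate kinase rose while 1 fell. The median log2 change was 0.29, against 0.011 for all tested genes. Rises of at least 1.5-fold were seen in 9 members (15.2% of all genes) and falls of that size in 6 (15.1%). Slc2a1 rose from a mean of 153 to 393 CPM (log2 change 1.36 ± 0.032 (SE), adjusted p = 2.60e-32). Eno1 rose from 63.9, 58.3 and 55.9 to 142, 144 and 142 CPM (log2 change 1.27 ± 0.042 (SE), adjusted p = 2.75e-27) and Ldha from a mean of 242 to 556 (log2 change 1.21 ± 0.035 (SE), adjusted p = 6.63e-29). Bnip3 (21 to 38.4, log2 change 0.88), Slc16a3 (0.85), Pdk1 (0.51) and Egln3 (0.49) rose too. Hk2 read 109, 115 and 120.5 against 124, 129 and 123 CPM (log2 change 0.13 ± 0.039 (SE), adjusted p = 0.00272), a call lost without the first library lacking SAG and Hoxb1 (adjusted p = 0.0680). Apart from that gene, the changes named here held in every alternative that was run.

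Some falls with SAG alone were large, though falls of at least 1.5-fold were about as frequent in members as in all genes. Pfkp fell from a mean of 279 to 71.5 CPM (log2 change -1.96 ± 0.063 (SE), adjusted p = 3.92e-12) and Vegfa from 464 to 133 (log2 change -1.80 ± 0.1 (SE), adjusted p = 1.97e-07). Pfkfb3 fell to 35.5, 45.9 and 39.4 CPM (log2 change -1.33 ± 0.089 (SE), adjusted p = 6.87e-08). Ddit4 fell less, from 389.6 to 283 (log2 change -0.46 ± 0.031 (SE), adjusted p = 1.61e-16). No library with SAG reached a library without it in these 4 genes. Several lists of other cells' genes moved along: all 6 mesenchyme markers rose (summed 406 to 433 CPM without and 2098 to 2134 with SAG, none at 0), all 6 endoderm markers rose (22.2 to 29.1 and 122 to 126, none at 0), and all 8 neuron markers fell (1599.9 to 1673 and 958 to 988, none at 0). The 8 pluripotency markers summed to 288 to 327 CPM without and 405 to 444 with SAG. The 8 neural progenitor markers summed to 2822 to 2987 and 2069 to 2151, and none of either list was at 0. Of endothelium and blood markers, Hbb-bt, Hba-a1 and Ptprc were at 0 in both groups. All 15 ATF4 genes fell (median -1.44). Their part in the changes of Pfkp, Vegfa and Slc2a1 was not tested.

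In progenitors with Hoxb1, 14 members rose with SAG and 16 fell, where 36.4% of 16238 genes rose and 35.8% fell. Members thus rose about as often as all genes and fell only a little more often. At 1.5-fold or more 4 rose (14.5% of genes) and 7 fell (14.9%), and the median log2 change was -0.07. Eno1 rose from 64.9, 71.4 and 70.2 to 122, 114 and 116 CPM (log2 change 0.77 ± 0.041 (SE), adjusted p = 5.53e-20) and Ldha from 244 to 394 (log2 change 0.69 ± 0.035 (SE), adjusted p = 1.39e-20). Gapdh, as counted, rose from 9.14, 8.68 and 9.41 to 14, 21 and 18.9 (log2 change 0.99 ± 0.16 (SE), adjusted p = 9.06e-05), at levels far below those known for this gene. Slc2a1 rose by only a log2 change of 0.15, Bnip3 by 0.20 and Pdk1 by 0.29. The largest falls were those of Adm (5.59, 4.82 and 6.16 to 2.43, 2.36 and 2.1 CPM, log2 change -1.27 ± 0.15 (SE), adjusted p = 4.63e-10), Pfkfb3 (72 to 31.1, 31.8 and 32.2, log2 change -1.19 ± 0.096 (SE), adjusted p = 4.24e-07) and Pfkp (133 to 64.4, log2 change -1.04 ± 0.068 (SE), adjusted p = 9.79e-09). Vegfa (-0.92), Ddit4 (-0.76) and Egln3 (-0.35) fell as well. In none of the genes named here did the libraries with SAG overlap those without it.

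The 2 SAG comparisons share no library. In both, 13 members rose (27.8% of 16238 genes) and 10 fell (27.7%), neither count far from the share of all genes. Slc16a3, Egln3, P4ha2 and Kdm3a rose with SAG alone and fell with SAG where Hoxb1 was present (1.96% of genes); for P4ha2 and Kdm3a the fall was lost with upper-quartile scaling (adjusted p = 0.0582 and 0.12), and that of Kdm3a also without the third library with SAG and Hoxb1 (adjusted p = 0.0584). Chromosome 11, which carries Slc16a3 and P4ha2, had a median log2 change of -0.16 with SAG in cells with Hoxb1, against 0.029 on the other chromosomes, beside changes of -0.28 and -0.17 in these genes. Its part in their falls was not tested. In cells with Hoxb1, mesenchyme markers rose in 5 of 6 and fell in 1 (summed 921 to 949 and 2068 to 2262 CPM), endoderm markers in 6 of 6 (16.8 to 20.7 and 123 to 131) and pluripotency markers in 8 of 8 (147 to 172 and 366 to 397), while neural progenitor markers fell in 8 of 8 (2698 to 2745 and 1638 to 1688); none of these markers was at 0. Their part in the SAG response was not tested. Chromosome 8, which carries Egln1 and Ankrd37, had a median log2 change of -0.23 with SAG alone, against 0.024 on the other chromosomes, and neither gene passed the test there.

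Several further members were named after their values were seen. Slc2a3, the high-affinity glucose transporter of neurons, was at 582 ± 3.6 CPM in wild-type and 385 ± 10.1 in null NMPs, and read 390.4, 410.0 and 374 with SAG and 305, 274 and 277 with SAG and Hoxb1 (log2 change -0.60 and -0.45). It fell in both comparisons. Its share of the CPM per kb of the 2 transporters was 28.2% ± 0.909 (SD) with SAG and 37.5% ± 0.884 with SAG and Hoxb1. P4ha1, a subunit of the collagen prolyl hydroxylase, fell in null NMPs (41.6 ± 0.809 to 31.1 ± 0.29 CPM) and with Hoxb1 both without SAG (log2 change -0.23) and with it (-0.20). P4ha2, its paralogue, moved in opposite directions with Hoxb1 (0.27 without and -0.22 with SAG). It lies on chromosome 11, whose median with Hoxb1 and SAG was -0.13 against 0.010 elsewhere, and the part of that shift was not tested. Bnip3l, a mitophagy receptor like Bnip3, also rose without SAG and fell with it (0.21 and -0.19) and fell in null NMPs (-0.39). Pkm and Aldoa, the most abundant enzymes as counted in wild-type NMPs, fell in null NMPs (log2 change -0.26 and -0.47) and with Hoxb1 and SAG (-0.23 and -0.42). Higd1a, a mitochondrial stress gene, was called only in the SAG comparisons (0.57 and 0.65).

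Lists of neighbouring genes were counted beside the members. In null NMPs the 27 further HIF targets tested held 8 falls and 4 rises (median -0.069), with Ak4, an adenylate kinase, at log2 change -0.84 and Lox, a collagen cross-linking enzyme, at 1.59. With Hoxb1 and SAG, 15 of 27 fell and 4 rose (median -0.15), with Rab20 (-1.24) and the secreted glycoprotein Stc2 (-0.86) lowest. Without SAG, 8 rose and 7 fell with Hoxb1 (median 0.033). Stc2 then fell from 155 ± 10.4 to 39.9 ± 1.56 CPM (log2 change -1.95). The 11 HIF pathway components, among them the alpha subunits Hif1a and Epas1 and the ubiquitin ligase subunit Vhl, changed little in null NMPs (2 falls, 1 rise, range -0.28 to 0.12). With Hoxb1 without SAG, 6 of the 11 rose and 1 fell, where 24.1% of all genes rose and 22.1% fell. With Hoxb1 and SAG, 5 rose and 1 fell, where 21.4% rose and 21.9% fell. Epas1 rose with Hoxb1 without SAG (1.17) and to a lesser size with SAG (0.23), and the difference passed the test (-0.94, adjusted p = 2.87e-07).

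Genes that take pyruvate into mitochondria and oxidise it were counted in the same way. Of 16 genes of the citric acid cycle, 2 rose and 1 fell in null NMPs (median -0.012), and 5 rose and 1 fell with Hoxb1 and SAG (median 0.06). Of 11 genes of pyruvate entry and pyruvate dehydrogenase, 3 rose and 2 fell in null NMPs and 3 rose and 1 fell with Hoxb1 and SAG. In null NMPs Pdk4, a kinase that inhibits pyruvate dehydrogenase, rose by 0.96 and Pdhb, a subunit of that enzyme, by 0.45 on the log2 scale. Of 7 pentose phosphate genes, none fell in any comparison of neural progenitors other than the interaction, and with SAG alone 4 rose, led by Pgd (0.99) and Taldo1 (0.82). The gluconeogenic Pck2 fell with Hoxb1 without SAG (log2 change -1.42) and with it (-0.59). Whether these lists differ from the members was not tested.

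Some members have near-identical copies elsewhere in the genome, and how reads that fit several places were counted is not given. Genes sharing stretches of at least 100 bases at 97% identity or more covered 88.0% of the Gapdh transcript (49 genes), 94.2% of Bnip3 (3 genes), 85.6% of Eno1 (2 genes, Eno1b among them), 76.8% of Ldhb, 68.8% of Pgk1, 65.5% of Pkm, 43.1% of Pgam1, 36.3% of Gpi1, 34.7% of Bnip3l, 19.3% of Tpi1 and 12.9% of Higd1a. Their levels, and the isoform shares of Eno2 and Ldhb, are therefore uncertain, and Eno1b moved as Eno1 did with SAG (log2 change 1.36). No such copy was found for Slc2a1, Slc16a3, Ldha, Pdk1, Pfkp, Vegfa, Egln3 or Aldoc. Antisense or opposite-strand genes overlap Slc2a1, Hk1, Hk2, Pfkp, Bnip3 and others, and the strand setting of the counting is not given.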

How the data were processed

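Poly(A) RNA of 18 libraries was sequenced after a strand-specific preparation with 15 PCR cycles, per the labels' protocols. The deposited values are raw read counts per gene, made by the authors with bcl2fastq 1.8.2 and featureCounts 1.4.6 on mm10, per the submitters' processing notes; which aligner, annotation release, strand setting and rule for multi-mapping reads they used was not given in the sources used here. Of 37224 genes, 35449 were given a symbol. Groups were taken from the labels.

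Counts were fitted with edgeR 4.0.16 (R 4.3.3; TMM factors, robust quasi-likelihood F-test, expression filter), in 1 fit of 6 NMP libraries (15032 genes) and 1 of 12 neural progenitor libraries (16238 genes), with Benjamini-Hochberg adjustment over all genes tested and calls at an adjusted p under 0.05. Fold changes come from these fits and standard errors are the log2 change over the square root of the F statistic, while CPM values use TMM factors over all 18 libraries, so that ratios of the printed means can differ slightly. The fit was tested on simulated data. DESeq2 1.42.0, other scaling, filters, samples and libraries left out were the alternatives. Copies were searched with blastn 2.17.0.

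The members, gene lists and markers were chosen with earlier results of these data known. Genes printed per library were fixed transporters, enzymes and HIF targets plus the largest called changes of each comparison; from other lists the called genes with the largest changes were named. Depth per library was 13301476 to 26974315 counts, so precision is lowest for genes of a few CPM.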

Additional observations from a re-analysis of the deposited data

Results flagged for a closer look

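The effect of Hoxb1 differed between neural progenitors with and without SAG in 23 of the 38 genes, by the interaction term of the edgeR fit at a Benjamini-Hochberg adjusted p under 0.05. Values are the log2 change with Hoxb1 under SAG minus that without SAG, over 3 libraries a group. For glucose entry and the steps to triose isomerase, the difference was -1.21 for Slc2a1, -0.25 for Hk1, -0.17 for Hk2, -0.31 for Gpi1, -0.48 for Pfkl, -0.15 for Pfkm, 0.92 for Pfkp, -0.43 for Aldoa and -0.38 for Tpi1. For the later steps and for the fate of pyruvate and lactate, it was -0.48 for Pgam1, -0.50 for Eno1, -0.23 for Pkm, -0.52 for Ldha, -0.22 for Pdk1 and -1.13 for Slc16a3. Among the prolyl hydroxylases and other HIF targets, it was -0.84 for Egln3, -0.67 for Bnip3, -0.40 for Bnip3l, 0.88 for Vegfa, -0.49 for P4ha2, -0.41 for Kdm3a, -0.30 for Ddit4 and -0.21 for Mxi1. The calls for Hk2 and Pfkm were lost when 1 of 2 libraries was left out (adjusted p up to 0.0704 and 0.0708). The SAG libraries form a set of their own by number and depth, from which SAG cannot be told apart.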

How the results depend on the processing

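Of 3035 refits of the 162 called member results, 2987 kept their direction and their side of the threshold, 48 no longer passed and 0 reversed; 145 results held in every alternative run. The settings were DESeq2, other scaling factors, a stricter filter and none, the comparison's own libraries only, all 18 libraries in 1 fit, a replicate block and each library left out in turn. The members that rose with Hoxb1 under SAG numbered 2 in place of 4 with only that comparison's libraries, fewer samples than in the fit of 12. Leaving out 1 library gave 3 to 3 members higher and 21 to 24 lower in null NMPs, 12 to 14 and 9 to 10 with Hoxb1 without SAG, and 3 to 5 and 24 to 27 with SAG. It gave 2 to 4 higher and 20 to 23 lower for the difference of the effects, 20 to 21 and 10 to 10 for SAG alone, and 12 to 15 and 15 to 16 for SAG with Hoxb1. Same-numbered libraries deviated from their group means with correlations of -0.053 to 0.22. The highest were 0.22 and 0.21, for the first and second libraries with SAG alone and with SAG and Hoxb1. In that comparison, and in that of Hoxb1 without SAG (0.0060 to 0.030), each library matched its own number best. The labels do not say what the numbers mark, and the main fit did not pair them. With the replicate block, members higher and lower numbered 3 and 23 in null NMPs, 13 and 10 with Hoxb1 without SAG, 5 and 28 with SAG, 3 and 21 for the difference, 20 and 10 for SAG alone and 14 and 16 for SAG with Hoxb1. Car9 (at most 0.668 CPM) and, in NMPs, Adm were too low for a difference to be detectable.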
